A study of Mus musculus with 2 samples.

Results

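Resident immune cells make up a small part of skeletal muscle, and 36 marker genes of them, out of 55536 annotated genes, were followed here in the gastrocnemius, the large muscle of the calf. The genes were taken by symbol from a list that names 16 macrophage genes, 4 antigen presenting genes, 10 lymphoid genes, 2 neutrophil genes and 4 mast cell genes; its rule uses no measured value, although the list was drawn up with earlier results of these data known. The series held 1 group of 2 total RNA libraries, biological replicates 1 and 2, from adult male mice of strain 5xFAD/CAST aged 8 to 10 months. The labels describe the animals as 5xFAD X Cast, that is 5xFAD mice, which carry mutant human transgenes, with APP among them, driven by a neuronal promoter as a model of amyloid deposition in brain, crossed with the wild-derived strain CAST. Each replicate has its own biosample, both listed under the same donor record, and the labels do not say whether each biosample was 1 animal. No untreated, wild type or other-tissue group was present, so the data give levels and the distance between these 2 libraries, and no p-value.

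Macrophages are the main resident immune cells of healthy muscle. They live in the connective tissue between fibres, depend on signalling through the Csf1r receptor, clear debris and are the main local source of the C1q proteins that start the classical complement pathway. Antigen presenting cells carry MHC class II molecules with the invariant chain Cd74, mast cells sit beside vessels with granules full of proteases, and lymphocytes and neutrophils are scarce in muscle that has not been injured. Levels are given in TPM, the deposited abundance scaled by transcript length and library, so that genes of different length can be set side by side. Each mean ± SD is over n = 2 libraries. Because whole tissue was sequenced, fewer cells of a type and less RNA per cell cannot be told apart.

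The sequences that the results turn on are of 2 kinds. The first are windows of 250 bases just before the start of antigen presenting genes and of C1q genes, from RefSeq on build GRCm38.p6, which show letters that members of one system share. Of the 36 genes, 24 had such a window. In the class II genes the capitals mark CTGATTGG, the core of the Y box, which is bound by the factor NF-Y. These letters, on either strand, occurred in 3.83% of all 32851 windows in the table and in 2 of the 24 members, H2-Aa and H2-Eb1.
H2-Aa (chr17:34287824-34288073, minus strand): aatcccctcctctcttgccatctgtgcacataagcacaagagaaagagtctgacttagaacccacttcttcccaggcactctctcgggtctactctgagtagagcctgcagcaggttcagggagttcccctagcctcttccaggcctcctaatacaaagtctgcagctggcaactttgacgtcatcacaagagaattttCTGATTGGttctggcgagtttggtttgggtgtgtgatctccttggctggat
H2-Eb1 (chr17:34305617-34305866, plus strand): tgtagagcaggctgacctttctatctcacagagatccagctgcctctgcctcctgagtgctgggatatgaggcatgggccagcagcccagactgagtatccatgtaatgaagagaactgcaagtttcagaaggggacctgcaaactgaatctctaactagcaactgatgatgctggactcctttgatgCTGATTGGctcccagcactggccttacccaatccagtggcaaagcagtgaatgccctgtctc

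The Y box letters began 51 bases before the start of H2-Aa and 62 bases before that of H2-Eb1, in the same orientation. In the C1q windows the capitals mark GAGGAA, the core letters of sites for PU.1, a factor of the myeloid lineage, or the longer GAGGAAGT that contains it, on either strand. GAGGAA was in 23.3% of all windows and in 12 of the 24 members, and GAGGAAGT in 2.44% of all windows and in 3 members (C1qc, Pf4 and S100a8). A match of letters is a description and does not show a bound site.
C1qb (chr4:136886201-136886450, minus strand): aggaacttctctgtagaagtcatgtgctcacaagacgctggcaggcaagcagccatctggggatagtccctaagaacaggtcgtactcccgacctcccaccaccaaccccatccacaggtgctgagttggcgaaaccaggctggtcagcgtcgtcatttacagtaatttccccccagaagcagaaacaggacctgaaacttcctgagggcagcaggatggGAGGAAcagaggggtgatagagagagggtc
C1qc (chr4:136892915-136893164, minus strand): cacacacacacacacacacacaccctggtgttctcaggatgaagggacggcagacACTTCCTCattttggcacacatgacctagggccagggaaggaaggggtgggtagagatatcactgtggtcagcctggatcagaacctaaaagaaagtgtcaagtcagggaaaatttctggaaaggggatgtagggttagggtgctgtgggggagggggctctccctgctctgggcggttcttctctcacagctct

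The second kind are the coding ends of the 2 annotated transcripts of Ighm, the constant region of the immunoglobulin M heavy chain, which share exons 1 to 3 and the first 333 bases of exon 4 and then part. One end encodes the stretch that anchors the chain in the membrane, and the other the short tail of the secreted chain. Both are read from the GENCODE M21 transcripts on mm10, 5′ to 3′, with the stop codon in capitals.
Ighm-202, membrane end (chr12:113418826-113419068, minus strand, 125 coding bases from exons 5 and 6): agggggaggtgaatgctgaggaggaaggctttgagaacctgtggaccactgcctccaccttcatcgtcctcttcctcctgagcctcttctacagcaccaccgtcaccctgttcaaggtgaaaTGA
Ighm-201, secreted end (chr12:113420867-113420928, minus strand, 62 coding bases from exon 4): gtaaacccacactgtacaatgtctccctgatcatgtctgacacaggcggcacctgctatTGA

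Across the 36 genes, macrophage and antigen presenting genes were at low but clear levels, mast cell genes lower, and lymphoid and neutrophil genes at or near 0 with the single exception of Ighm. At least 1 TPM in both libraries was reached by 16 genes, namely 11 of the 16 macrophage genes, all 4 antigen presenting genes and Ighm. Another 4 genes (Cd3e, Cd8a, Nkg7 and S100a9) had 0 expected counts in both libraries. For scale, 10068 of 22015 nuclear protein-coding genes reached 1 TPM in both libraries, and the median among these was 8.09 TPM. The gene tables held 35163970 and 35412240 expected counts over annotated genes in replicates 1 and 2, and the 36 genes together took 0.0154% and 0.0198% of these. The tissue label fits the muscle fibre markers, all 6 of which were high, Acta1 (skeletal actin) at 18634 and 18372 TPM, Tnnt3 (fast troponin T) at 17223 and 16907 TPM and Ckm (muscle creatine kinase) at 17390 and 16315 TPM.

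**Figure D1:**
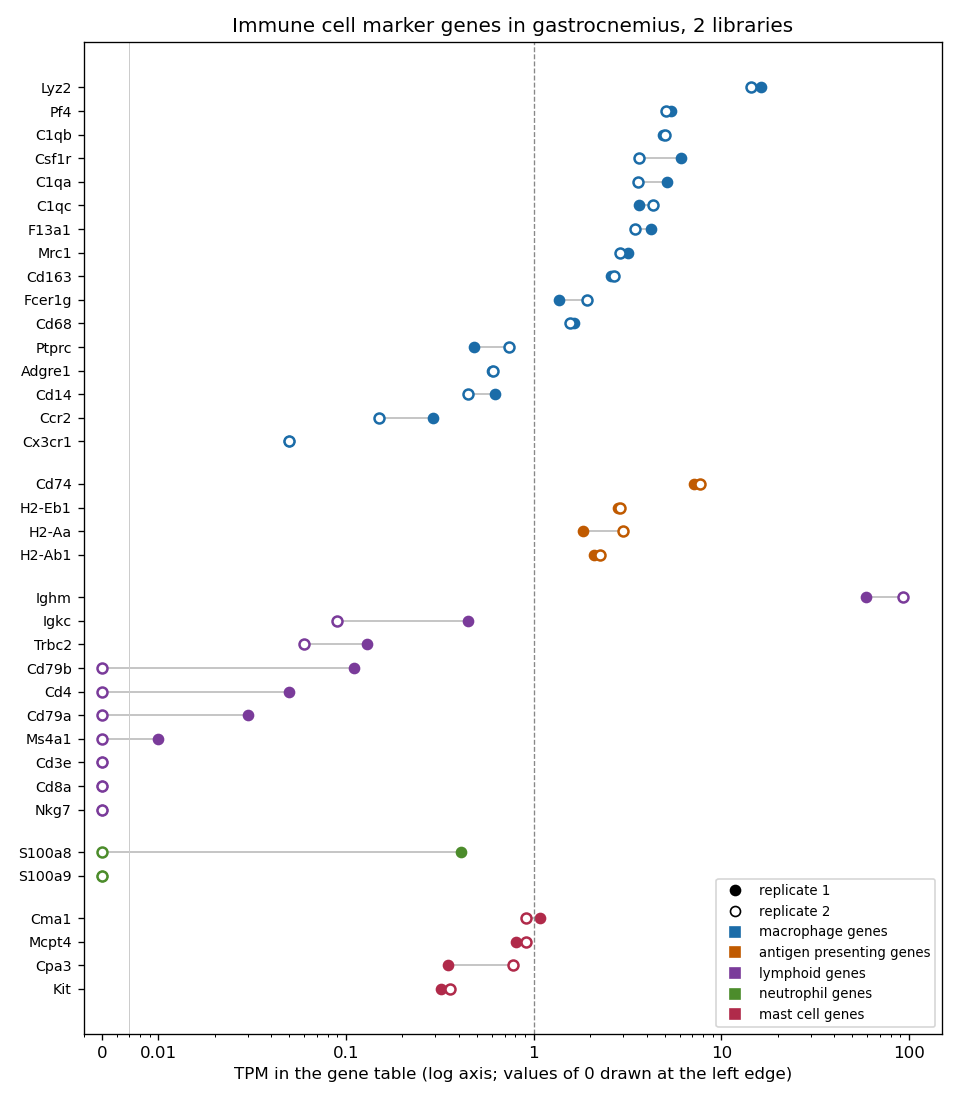
TPM of each of the 36 genes on a log axis, by group, with filled points for replicate 1 and open points for replicate 2; values of 0 are drawn at the left edge and the dashed line is 1 TPM. The macrophage and antigen presenting genes lie mostly between 1 and 10 TPM, Ighm stands far to the right at 58.8 and 92.9 TPM, and every other lymphoid gene lies below 0.5 TPM.

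Macrophage genes summed to 56.6 TPM in replicate 1 and 50.5 TPM in replicate 2, a mean of 53.5 ± 4.26 TPM. Lyz2, lysozyme of myeloid cells, led them at 16.4 and 14.3 TPM and gave 28.9% and 28.4% of that sum. Its mean level was above that of 85.5% of nuclear protein-coding genes. No other macrophage gene passed 7 TPM in either library.

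The receptors of macrophage identity were unevenly expressed. Csf1r, the receptor for the growth factors Csf1 and Il34, had 411 and 367 counts and 6.09 and 3.64 TPM. Mrc1, the mannose receptor CD206, had 425 and 413 counts and 3.18 and 2.90 TPM. Cd163, the scavenger receptor for haemoglobin bound to haptoglobin, had 270 and 303 counts and 2.58 and 2.67 TPM. Both scavenging receptors therefore differed little between the libraries, and both stood well above Adgre1, the receptor that carries the F4/80 epitope, which had 0.60 and 0.61 TPM from 42 and 47 counts. Mrc1 exceeded Adgre1 5.30-fold in replicate 1 and 4.75-fold in replicate 2 per length.

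Genes that mark recently arrived monocytes were at the low end. Ccr2, the receptor through which monocytes enter tissue, had 24 and 14 counts and 0.29 and 0.15 TPM, and Csf1r stood 21-fold and 24.3-fold above it. Cx3cr1, the fractalkine receptor of monocytes and of some tissue macrophages, had 5 and 4 counts, 0.05 TPM in each library. The annotated body of Cx3cr1 spans several other genes, Gorasp1 and Xirp1 among them on the same strand. Cd14, the coreceptor for lipopolysaccharide, had 0.62 and 0.45 TPM from 21 and 19 counts.

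Of the broader myeloid markers, Cd68, a protein of the lysosomal membrane, had 1.64 and 1.56 TPM from 41 and 35 counts. Fcer1g, the signalling chain shared by several Fc receptors, had 1.36 and 1.92 TPM from 20 and 30 counts. Ptprc, the pan-leukocyte phosphatase CD45, had 53 and 43 counts but 0.48 and 0.74 TPM, so counts and TPM put the libraries in opposite order. In replicate 2 a short retained-intron transcript, Ptprc-205 of 364 bases, held 2.84 counts and 54.1% of the TPM of the gene, and in replicate 1 it held 0. The coding transcripts Ptprc-207 and Ptprc-204 held 41.7% and 33.3% of the TPM in replicate 1, against 0% and 29.7% in replicate 2, and the retained-intron Ptprc-202 held 12.5% and 4.05%. In the kallisto-layout table Ptprc-203 held 0% and 27.6%, so at this depth the isoforms of Ptprc were not resolved.

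Genes linked to clotting were among the higher macrophage genes. F13a1, the catalytic A subunit of factor XIII, which resident macrophages express, had 4.20 and 3.47 TPM from 337 and 333 counts. Pf4, platelet factor 4, had 5.43 and 5.10 TPM from 52 and 50 counts, and it is made by megakaryocytes as well as by tissue macrophages. The 7 platelet markers beside it summed to 1.21 and 1.02 TPM, with Itga2b (the integrin IIb chain) at 0.90 and 0.84 TPM, Ppbp (platelet basic protein) at 0.20 and 0.15 TPM and Gp9 at 0.10 and 0 TPM, while Gp1bb and Treml1 had 0 counts in both libraries. The RSEM table gave 49.7% and 55.9% of the TPM of Pf4 to the retained-intron transcript Pf4-202 and the rest to the coding Pf4-201, whereas the kallisto-layout table gave 100% to Pf4-201 in both.

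The C1q genes lie side by side on chromosome 4, on the minus strand from 136880129 to 136898803 in mm10, and encode the A, B and C chains, which join in equal numbers in the C1q molecule. C1qb had 124 and 134 counts and 4.91 and 4.99 TPM, close to identical. C1qa had 123 and 92 counts and 5.12 and 3.60 TPM. C1qc had 103 and 130 counts and 3.65 and 4.34 TPM. The chains were thus within 1.40-fold of each other in replicate 1 and the order of A and C turned between the libraries, C1qa standing at 1.40 times C1qc in replicate 1 and at 0.829 times in replicate 2. The kallisto-layout table gave 1.16 and 0.785 for the same ratio. Each has essentially 1 expressed transcript, so transcript choice did not enter these values.

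Antigen presenting genes summed to 13.9 and 15.8 TPM, a mean of 14.9 ± 1.34 TPM. Cd74, the invariant chain that holds class II molecules until they reach the endosome, led them at 7.15 and 7.67 TPM from 217 and 240 counts. The class II chains stood at less than 3 TPM each. H2-Eb1, a beta chain, had 2.82 and 2.89 TPM from 65 and 70 counts. H2-Ab1, the beta chain of I-A, had 2.10 and 2.27 TPM from 55 and 60 counts. H2-Aa, the alpha chain that pairs with it, had 1.84 and 2.98 TPM from 52 and 84 counts. Cd74 exceeded H2-Ab1 3.40-fold and 3.38-fold per length, an excess that the libraries shared, while the ratio of H2-Aa to H2-Ab1 was 0.876 in replicate 1 and 1.31 in replicate 2. H2-Ab1, H2-Aa and H2-Eb1 lie next to each other on chromosome 17, between 34257689 and 34316674 in mm10. H2-Aa and H2-Eb1 share the Y box letters shown above, whereas H2-Ab1 had no window and was not searched for them.

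Cd74 has a short coding transcript, Cd74-201, and a longer one, Cd74-202, which carries an added exon. Cd74-201 held 66.6% and 84.6% of the TPM of the gene, and Cd74-202 held 33.4% and 15.4%. The kallisto-layout table gave Cd74-202 30.7% and 18.5%, so both tables put its share higher in replicate 1. For H2-Eb1, the RSEM table gave 0 counts to the annotated coding transcripts H2-Eb1-201 and H2-Eb1-203 in both libraries. It gave 71.6% and 68.2% of the TPM to H2-Eb1-205, annotated as a target of nonsense-mediated decay. The kallisto-layout table gave the coding H2-Eb1-203 4.77% and 8.73%, and H2-Eb1-205 84.0% and 76.2%. The leading transcripts of the other class II genes were coding ones, H2-Aa-201 with 96.2% and 99.7% and H2-Ab1-201 with 73.3% and 68.3%.

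**Figure D2:**
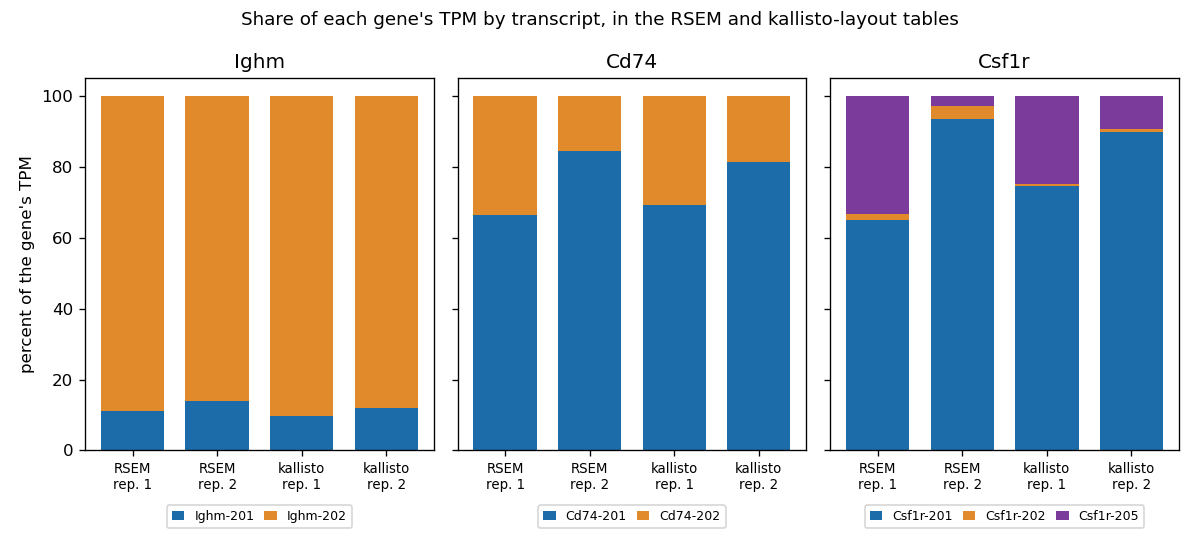
Share of each gene's TPM by transcript for Ighm, Cd74 and Csf1r, in percent, with the RSEM table and the kallisto-layout table side by side for replicates 1 and 2. Ighm-202 holds 86.2% to 90.4% of Ighm in all 4 columns. Cd74-202 holds less than Cd74-201 throughout, and its share is larger in replicate 1 than in replicate 2. The short Csf1r-205 takes 33.2% of Csf1r in replicate 1 and 2.75% in replicate 2 in the RSEM table.

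Csf1r shows how a short transcript moves a gene's TPM. Its counts of 411 and 367 lay closer together than its TPM of 6.09 and 3.64. Csf1r-205, an annotated coding transcript of 416 bases, took 16.3 counts and 2.02 TPM in replicate 1, against 0.86 counts and 0.10 TPM in replicate 2. The full-length Csf1r-201 had 3.96 and 3.40 TPM. In 7 other macrophage genes 1 transcript led in both libraries, Mrc1-201 with 98.7% and 99.0%, Cd163-201 with 86.8% and 86.1%, F13a1-201 with 72.9% and 80.1%, and Lyz2-201, C1qa-201, C1qb-201 and C1qc-201 with 100%.

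Lymphoid genes summed to 59.6 and 93.0 TPM, and nearly all of it was Ighm. Ighm had 2368 counts and 58.8 TPM in replicate 1 and 3960 counts and 92.9 TPM in replicate 2, a mean of 75.9 ± 24.1 TPM, above that of 96.8% of nuclear protein-coding genes. It gave 44.2% and 57.2% of the summed TPM of all 36 genes. Without Ighm the other 9 lymphoid genes summed to 0.78 and 0.15 TPM, from 16 and 2 counts. The gene lies on chromosome 12 from 113418558 to 113422730 on the minus strand of mm10, no other annotated gene overlaps it, and the deposited posterior SD of its count was 0 in both libraries, so the tables did not divide its reads with another gene.

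The partners of a mu heavy chain did not follow Ighm. Igkc, the kappa light chain constant region, had 5 and 1 counts and 0.45 and 0.09 TPM, so that per length Ighm exceeded it 131-fold in replicate 1 and 1032-fold in replicate 2, the last value resting on 1 count. Cd79a and Cd79b, the signalling chains of the B cell receptor, had 1 and 3 counts in replicate 1 and 0 each in replicate 2. Ms4a1, the B cell surface protein CD20, had 1 and 0 counts. All 218 immunoglobulin V genes together had 4 and 1 counts. Annotated D and J segments are at most 100 bases long, and none of the 2412 genes of that length had a count in either library, so their 0 counts carry no information.

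Of the 16 other B and plasma cell genes, 6 had 0 counts in both libraries and only Ighg2c, the constant region of IgG2c, reached 1 TPM in both. Ighg2c had 65 and 96 counts and 2.46 and 3.46 TPM, lower in replicate 1 as Ighm was. Cd37, a tetraspanin of leukocytes, had 0.65 and 0.40 TPM, Blnk, a signalling adaptor, had 0.42 and 0.53 TPM, and the B lineage factor Pax5 had 2 and 0 counts. Over the 13 immunoglobulin constant region genes Ighm held 97.0% and 97.5% of the counts. Most of the Ighm signal fell to the membrane form shown above: Ighm-202 had 52.2 and 80.0 TPM, 88.7% and 86.2% of the gene, and the secreted form Ighm-201 had 6.63 and 12.9 TPM, 11.3% and 13.8%. The kallisto-layout table gave Ighm-202 90.4% and 87.9%. Both transcripts were lower in replicate 1, and the membrane form led in both tables and both libraries.

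**Figure D3:**
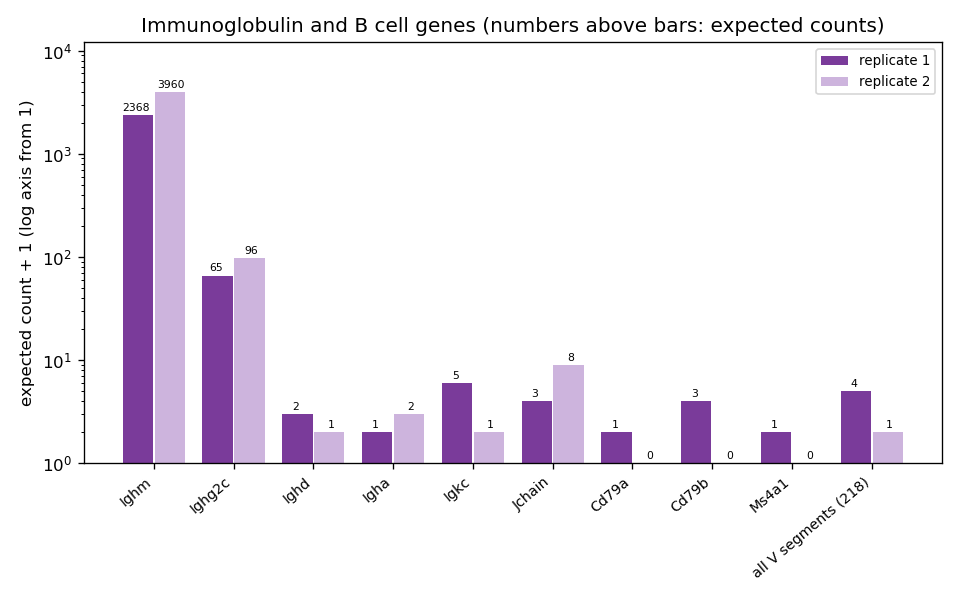
Expected counts of 5 immunoglobulin constant region genes, of Jchain, Cd79a, Cd79b and Ms4a1, and of all V genes summed (other B cell genes, Cd37 and Blnk among them, are not drawn), plotted as count + 1 on a log axis from 1, with replicate 1 left of replicate 2 and the count printed above each bar. Ighm has 2368 and 3960 counts, Ighg2c 65 and 96, and no other bar passes 10.

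Most T cell and cytotoxic genes were near the limit of detection in the gene table. Cd3e, the epsilon chain of the T cell receptor complex, had 0 counts in both libraries, which allows up to 0.104 and 0.0977 TPM. Nkg7, a granule protein of cytotoxic cells, also had 0 counts, which allows up to 0.196 and 0.185 TPM. Trbc2, a constant region of the T cell receptor beta chain, had 2 and 1 counts, and Cd4, the coreceptor of helper T cells that some macrophages carry too, had 4 and 0. Floors here are 3 counts and cover counting error only, because reads are not independent molecules. Over the 144 T cell receptor V genes no count was present.

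Cd8a, the alpha chain of CD8, depended on the table. The gene table gave 0 counts in both libraries, and the kallisto-layout table gave 25 and 10 counts, all on the single transcript Cd8a-202. Of the 15 other T cell genes, 4 had 0 counts in both libraries of the gene table, Cd3d, Cd3g, Trac and Trbc1. The kallisto-layout table gave Cd3d, the delta chain of the T cell receptor complex, 14.1 and 16.2 counts, and the other 3 at most 2 counts in either library. Cd28, a costimulatory receptor, was alone in reaching 1 TPM in both libraries, with 207 counts and 1.98 TPM in replicate 1 and 207 counts and 1.94 TPM in replicate 2. Cd247, the zeta chain, had 0.45 and 0.40 TPM and Tcf7 0.15 and 0.17 TPM. Of 8 natural killer and cytotoxic genes 6 had 0 counts in both libraries, including Gzma, Gzmb, Prf1 and Klrb1c, while Tbx21 had 0.26 and 0.20 TPM and Klrk1 had 1 and 0 counts.

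Neutrophil genes had few or no counts in the gene table. S100a8, a calcium-binding protein abundant in neutrophils, had 4 counts and 0.41 TPM in replicate 1 and 0 counts in replicate 2, which allows up to 0.282 TPM. Its partner S100a9 had 0 counts in both, which allows up to 0.282 and 0.266 TPM. Of 12 other neutrophil genes 6 had 0 counts in both libraries, among them Ly6g, Cxcr2, Mpo and Elane. Cxcr2, a chemokine receptor, depended on the table, with 16.8 and 17.1 counts in the kallisto-layout table, where the other 5 had 0. The highest in the gene table were Mmp9 (0.35 and 0.16 TPM), Lcn2 (0.29 and 0.36 TPM) and Csf3r (0.14 and 0.09 TPM), and other cells make Mmp9 and Lcn2 as well.

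Mast cell genes summed to 2.56 and 2.96 TPM, a mean of 2.76 ± 0.283 TPM, and all 4 had counts in both libraries. Cma1, a chymase of connective tissue mast cells, had 1.08 and 0.91 TPM from 27 and 24 counts. Mcpt4, another chymase of these cells, had 0.81 and 0.91 TPM from 21 and 25 counts. Both chymases thus stood near 1 TPM in both libraries. Cpa3, the mast cell carboxypeptidase, had 0.35 and 0.78 TPM from 12 and 25 counts. Kit, the receptor for stem cell factor, had 0.32 and 0.36 TPM from 32 and 41 counts, and it is also found outside mast cells.

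Of 13 other mast cell genes, Tpsb2, a tryptase, and Gata2, a transcription factor that endothelium also expresses, reached 1 TPM in both libraries, Tpsb2 with 2.38 and 1.54 TPM and Gata2 with 2.69 and 1.67 TPM. Tpsab1, another tryptase, had 0.54 and 0.70 TPM. Mcpt1 and Mcpt2, proteases of mucosal mast cells, and Mcpt8, a protease of basophils, had 0 counts in both libraries. Chymase and tryptase genes of connective tissue mast cells were therefore both detected, beside 0 counts for those mucosal and basophil markers. The transcripts of Kit were not resolved: the RSEM table gave 75.0% of its TPM to Kit-201 in replicate 1 and 66.7% to Kit-204 in replicate 2, with 0% for the other of the pair each time. Retained-intron transcripts took the rest, Kit-202 with 25.0% and 0%, and Kit-208 with 0% and 22.2%, and the kallisto-layout table gave Kit-205 0% and 34.4%.

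Ligands of the member receptors were detected beside them. Kitl, the ligand of Kit, stood far above its receptor at 7.19 and 8.31 TPM, Csf1 had 2.22 and 3.33 TPM, and Il34 had 2.38 and 1.31 TPM. Ccl7 and Ccl12, ligands of Ccr2, had 0 counts in both libraries. Ccl2 had 0.33 and 0.15 TPM, and Cx3cl1, the ligand of Cx3cr1, 0.64 and 0.41 TPM.

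Among 22 further genes of macrophage and monocyte identity, 8 reached 1 TPM in both libraries. Maf, a transcription factor found in macrophages, had 65.5 and 62.9 TPM, and Cbr2, a carbonyl reductase found in resident macrophages, 13.7 and 14.8 TPM. Lyve1, a hyaluronan receptor of resident macrophages and lymphatic endothelium, had 1.82 and 1.99 TPM, and Folr2, a folate receptor of resident macrophages, 1.14 and 1.15 TPM. Maf and Cbr2 are not limited to macrophages. Other genes of resident macrophages in this list were lower, Timd4 at 0.30 and 0.18 TPM, Siglec1 at 0.20 and 0.19 TPM and Vsig4 at 0.25 and 0 TPM. The monocyte genes Ly6c2 and Plac8 had 1.32 and 1.05 TPM and 0.12 and 0.29 TPM. Of 10 genes of Fc receptor and ITAM signalling, 2 reached 1 TPM in both libraries, Tyrobp, the adaptor DAP12, with 2.44 and 1.19 TPM and the kinase Lyn with 1.97 and 1.36 TPM, and the inhibitory receptor Fcgr2b had 0.96 and 1.14 TPM.

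The complement cascade downstream of C1q was broadly expressed, with 10 of 13 genes at 1 TPM or more in both libraries. Cfd, the protease factor D, which fat cells make in quantity, had 27.7 and 30.0 TPM. The regulators Cd55 and Serping1, the inhibitor of C1, had 27.8 and 25.3 TPM and 24.5 and 20.4 TPM. The proteases that join C1q in C1, C1ra and C1s1, had 3.35 and 3.33 TPM and 9.24 and 7.94 TPM. The levels of C1ra and of the C1q chains were of the same order.

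Of 18 further genes of class II loading and dendritic cells, 2 reached 1 TPM in both libraries. H2-DMa, a chain of the peptide editor of class II, had 2.03 and 1.80 TPM, and Zbtb46, a factor of classical dendritic cells that endothelium also expresses, 1.81 and 2.03 TPM. Ctss, the protease that trims the invariant chain, had 1.68 and 0.97 TPM. Ciita, the master activator of class II genes, had 0.07 and 0.08 TPM from 7 and 12 counts, and the dendritic cell markers Xcr1, Clec9a and Flt3 had at most 3 counts in either library.

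Set against each other on counts, the libraries differed little in immune markers other than Ighm. The contrast is the log2 ratio of counts in replicate 1 over replicate 2, scaled over the 14370 genes that averaged 10 or more counts, and it held 24 of the 36 genes. An exact binomial 95% interval on the counts lay above 0 for 0 of these 24, where 10.4% of all 14370 genes had such an interval, and below 0 for 4 of them, where 10.5% of all genes did. Up to a mean count of 490.5, the highest among the 24 other than Ighm, the shares of all genes were 8.88% and 7.07%. The median log2 ratio of the 24 genes was -0.16, beside 0.00 for all genes, and -0.16 without Ighm. By group the medians were 0.00 for 15 macrophage genes, -0.19 for 4 antigen presenting genes and -0.35 for 4 mast cell genes. The 4 genes below 0 were Ighm at -0.79 (-0.87 to -0.72), H2-Aa at -0.74 (-1.27 to -0.23), Cpa3 at -1.08 (-2.24 to -0.06) and C1qc at -0.39, whose interval ended at -0.0035 and covered 0 when counts were scaled by library totals. With 1 library on each side none of these differences has a replicate check.

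**Figure D4:**
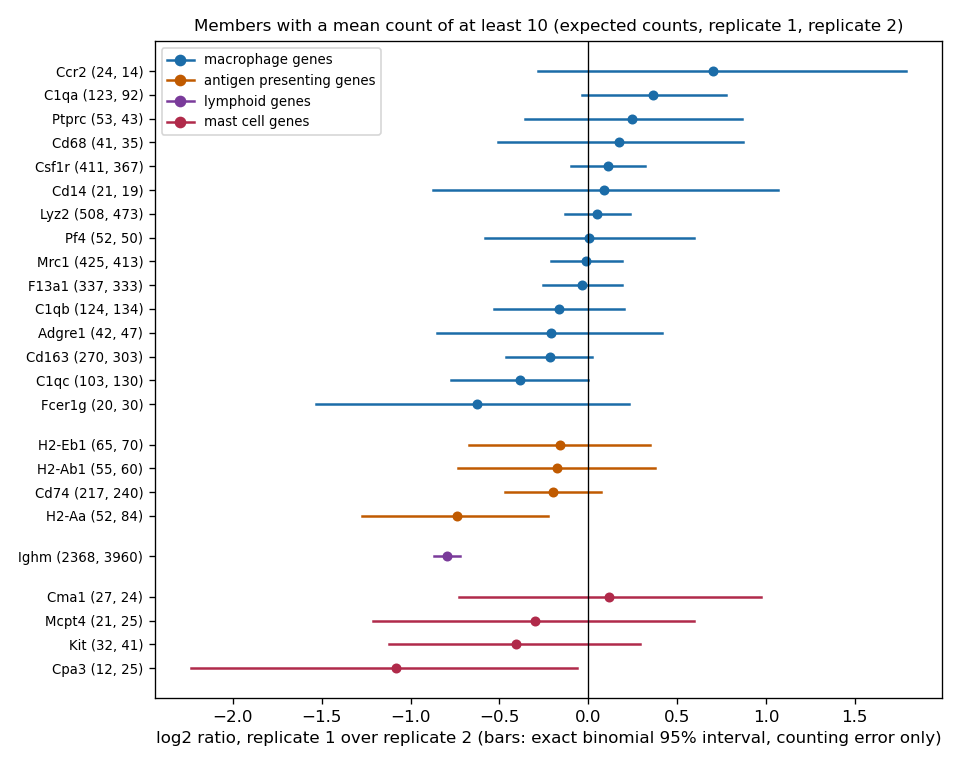
Log2 ratio of counts, replicate 1 over replicate 2, for the 24 genes that averaged 10 or more counts, with exact binomial 95% intervals for counting error and the counts of replicates 1 and 2 beside each name. Only Ighm, H2-Aa, Cpa3 and C1qc have intervals below 0, and none lies above 0.

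The gap in Ighm kept its direction under every scaling tried, from -0.66 on deposited TPM to -0.89 on spike-in totals, and its counting interval lay below 0 under each scaling of counts. Ighg2c was lower in replicate 1 as well, at -0.61 (-1.09 to -0.15). Markers of other cells moved between the libraries too. On this scale the medians were 0.23 for 9 endothelial genes, 0.38 for 6 adipocyte genes, 0.20 for 8 pericyte and smooth muscle genes, 0.27 for 5 satellite cell genes, 0.21 for 5 erythroid genes, -0.13 for 8 fibroblast genes and -0.10 for 6 muscle fibre genes.

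The range behind these medians was wide in the vessel and fat lists. Kdr, a receptor of endothelium, was at 0.79 (0.63 to 0.94), Emcn at 0.60 (0.22 to 0.99), Kcnj8, a channel of pericytes, at 0.63 (0.34 to 0.94), and Lep, the adipocyte hormone leptin, at 0.86 (0.66 to 1.07). Intervals lay above 0 for 5 of 6 adipocyte, 5 of 9 endothelial and 5 of 8 pericyte and smooth muscle genes. None of these lists had an interval below 0. Intervals lay below 0 for 5 of 8 fibroblast and 6 of 6 muscle fibre genes, and above 0 for none of these. Over all 14370 genes the shares were 10.4% above and 10.5% below. Intervals narrow as counts rise, so these tallies depend on counts as well as on the size of the ratio. Among the 4 antigen presenting genes the interval lay below 0 for H2-Aa and covered 0 for the other 3. The summed TPM of the endothelial list was 76.4 and 57.5, and that of the adipocyte list 189 and 127. The part of these cell types in the immune marker ratios was not tested.

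**Figure D5:**
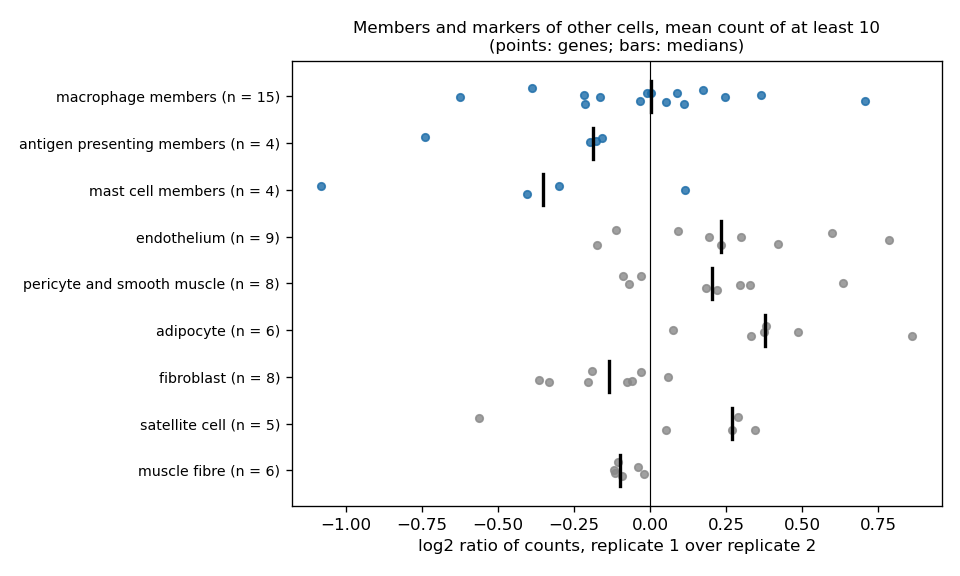
Log2 ratio of counts, replicate 1 over replicate 2, for member groups (blue) and for markers of other cells (grey) that averaged 10 or more counts; each point is a gene and each black bar the median of its list. Macrophage genes scatter around 0, antigen presenting and mast cell medians lie below 0, and endothelial, adipocyte, pericyte and satellite cell medians lie above it.

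Few other genes of the immune systems passed 1.5-fold with at least 50 counts. Csf1 had 196 and 285 counts, a log2 ratio of -0.59 (-0.86 to -0.32). Ctss had 54 and 33 counts, at 0.65 (0.01 to 1.33). Csf1r, the gene of the Csf1 receptor, was at 0.11 (-0.10 to 0.32), an interval that covers 0.

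The level of a few members depended on which table was read. The log2 ratio of gene table TPM over kallisto-layout TPM, with 0.1 TPM added to each, had a median of 0.06 over the 24 genes, averaged over both libraries. It exceeded 0.25 in size in at least 1 library for 9 of the 24 and in both libraries for 1, H2-Ab1, at -0.46 and -0.32. The kallisto-layout table gave H2-Ab1 80 and 91 counts where the gene table gave 55 and 60. H2-Aa stood at -0.42 and -0.11, whereas the third class II gene, H2-Eb1, stood at 0.13 and 0.03.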

How the data were processed

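RNA was isolated with a column kit, and 300 ng entered a directional library protocol with ribosomal reduction and ERCC spike-ins, per the labels. Per the file headers, the authors' gene and transcript tables of RSEM hold expected counts, which divide reads that fit several genes, a posterior SD of each count, and TPM. The kallisto-layout tables deposited by the authors hold estimated counts and TPM per transcript, summed here per gene. All are on mm10 with GENCODE M21, whereas the mice carry CAST alleles, and the effect of strain differences on read assignment was not tested. The aligner, strand setting and program versions were not given in the sources used here. Spike-in and phiX rows, 0.527% and 0.474% of counts in replicates 1 and 2, were left out.

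Levels are deposited TPM. Ratios between libraries used expected counts rounded to whole numbers, edgeR 4.0.16 TMM factors over genes averaging 10 or more counts, a prior of 0.5 counts and exact binomial 95% intervals (scipy 1.17.1). The ratio and interval were tested on simulated data. Both libraries form 1 group, so no p-value was computed. Alternatives were DESeq2 1.42.0 size factors, library and spike-in totals, deposited TPM, other count and TPM minimums, another prior, the kallisto-layout table, a protein-coding TPM total and either library by itself. The programs were R 4.3.3, numpy 2.4.6, pandas 2.3.3 and matplotlib 3.10.9.

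The members and the other gene lists were chosen with earlier results of these data known. The text names all 36 members and, from each other list, its 3 genes of highest mean TPM and any averaging 50 or more counts with a 1.5-fold ratio between libraries. It also names, for members averaging 50 or more counts, the transcript of highest TPM, and for Cd74, Ighm, Ptprc and Kit those with at least 10% of the gene TPM. Other genes, Csf1r-205 and the other transcripts of Pf4 and H2-Eb1 were named after their values were seen. In the lists of non-immune cells not every gene that the rule names is printed. Some results are not reported here.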

Additional observations from a re-analysis of the deposited data

How the results depend on the processing

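Depth limits the rare markers: 12 of the 36 genes had a mean count under 10, and 3 counts corresponded to between 0.02 and 0.31 TPM over the members. Rescaling TPM over nuclear protein-coding genes raised summed TPM to 119.4 for macrophage genes, 33.3 for antigen presenting genes, 171.8 for lymphoid genes and 6.18 for mast cell genes, because the total then leaves out other RNA. With the kallisto-layout table each sum stayed within 1 SD of its reported value, with 16 members at 1 TPM or more, and other minimums gave 19 (0.5 TPM) and 13 (2 TPM). Leaving out each library in turn gave 50.5 to 56.6 TPM for macrophage, 13.9 to 15.8 for antigen presenting, 59.6 to 93.0 for lymphoid, 0 to 0.41 for neutrophil and 2.56 to 2.96 for mast cell genes, and 16 to 17 members at 1 TPM.

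The median log2 ratio of members turned to 0.028 with no count minimum and moved to -0.029 on deposited TPM, which itself shifts the median of all genes by 0.13. Under the other settings it lay between -0.25 and -0.07. Intervals above 0 numbered 1 with library totals (C1qa) and 1 with kallisto-layout counts (Cd8a), whose cause was not tested. Intervals below 0 numbered 3 to 6 over the settings, with Ighm and H2-Aa among them each time. The Ighm settings and the sums without Ighm were chosen after seeing the data. No paired analysis was possible because both libraries belong to 1 group.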
